A study of Mus musculus with 2 samples.

Results

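The regions described here are the 5163 narrow enrichment peaks that were called in Dnmt3L-knockdown embryonic stem cells and overlapped no peak of the control cells. They were chosen from the shDnmt3L peak list by a width below 5000 bp and the absence of even 1 bp of overlap with a shGFP peak. They made up 11.3% of the 45579 shDnmt3L peaks and 11.9% of the 43216 shDnmt3L peaks below 5000 bp. They were also 90.2% of the shDnmt3L peaks without shGFP overlap, the rest being 561 wide peaks of 5000 bp or more. Lack of overlap was more frequent among wide peaks, 561 of 2363 (23.7%), than among narrow peaks, and was 12.6% over all shDnmt3L peaks. By distance to those 561 wide peaks, 440 narrow peaks lay within 50 kb of one and are called near-wide below, and 4723 lay farther away and are called isolated. The 38053 narrow shDnmt3L peaks that did overlap a shGFP peak are called shared.

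Both libraries came from E14 embryonic stem cells, a line of mouse pluripotent cells. One culture was transfected with a short hairpin RNA against Dnmt3L (shDnmt3L, 1 library) and the other with a hairpin against GFP, a gene that the mouse genome does not carry (shGFP, 1 library, the control). The labels give no knockdown level, clone or harvest time, and the level of Dnmt3L was not analysed here. With 1 library a group no difference has a replicate check, and no p-value is given.

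Dnmt3L is a catalytically inactive relative of the DNA methyltransferases that helps Dnmt3a and Dnmt3b place methyl groups on cytosine. The Tet enzymes oxidise methylcytosine to hydroxymethylcytosine, which is abundant in embryonic stem cells and is found at enhancers, in gene bodies and at promoters of developmental genes. The sample titles and the series design refer to methylcytosine (MeDIP), whereas the labels' protocols describe capture with a hydroxymethylcytosine kit. The modification is therefore left unnamed, and the regions are called enrichment peaks. No gene is named and no sequence is shown for a peak, because no genome or annotation of the build used by the files, mm9, was used here. Coordinates are mm9 with the first base counted as 1.

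The absence of a shGFP peak and the width limit chose these regions. Their number, their widths up to the limit and their lack of a called control peak therefore describe the selection and are not tested. A peak without overlap is one where no shGFP peak was called, which is not the same as no enrichment in the control. Of the 5163 peaks, 201 (3.89%, Wilson 95% interval 3.40 to 4.46%) ended within 500 bp of a shGFP peak and 971 (18.8%) within 2000 bp. When peaks scoring under 100 were left out of both lists, 2791 narrow peaks were unshared. These were not a subset of the 5163. Scores of 100 or more were held by 1380 of the 5163 (26.7%) and by 18824 of the 38053 shared narrow peaks. The other peaks among the 2791 overlapped only shGFP peaks scoring under 100, which the cut removed. The values on either side of the limits ran on without a gap. The 3 widest unshared narrow peaks measured 4995, 4988 and 4983 bp, with scores of 236.92, 178.38 and 228.27. The 3 unshared peaks just above the limit measured 5008, 5012 and 5024 bp, with scores of 255.33, 250.16 and 239.65. At the 50 kb limit, the 3 near-wide peaks closest to it lay 49929, 49769 and 49612 bp from a wide peak, and the 3 nearest isolated peaks 50061, 50187 and 51179 bp.

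The score is the authors' peak caller's own value for each peak, and it is compared here only within the shDnmt3L list. Unshared narrow peaks were low in score. Their median was 70.3 (quartiles 56.5 and 103), against 99.05 (69.0 and 162) for shared narrow peaks. Scores below 60, just over the lowest value in the list of 50, were held by 34.05% of the unshared peaks (32.8 to 35.4%) and by 14.4% of the shared peaks (14.0 to 14.7%). Scores of 200 or more were held by 268 unshared peaks, or 5.19%, and by 17.0% of the shared peaks. The highest score of an unshared narrow peak was 754.36, while the shDnmt3L list reached 3204.36. The intervals here and below are Wilson 95% intervals. They reflect counting error alone, and neighbouring peaks are not independent of each other.

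The unshared narrow peaks differed from the shared ones in the spread of their widths more than in the middle. Their median width was 2399 bp (quartiles 1990 and 3058 bp), against 2343 bp (2020 and 2687 bp) for shared narrow peaks. Widths of 3000 bp or more were found in 26.7% of unshared peaks (25.5 to 27.9%) and in 19.0% of shared peaks (18.6 to 19.4%). Widths of 4000 bp or more were found in 8.72% of unshared and 5.73% of shared peaks. At the other end, 25.4% of unshared (24.2 to 26.6%) and 24.0% of shared peaks (23.5 to 24.4%) were below 2000 bp. The unshared share was lowest between, at 9.39% of the peaks of 2000 to 2500 bp (8.96 to 9.83%), against 12.7% at 1500 to 2000 bp and 16.1% at 3000 to 3500 bp.

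Width and score went together more tightly among the unshared peaks. Spearman's rho between them was 0.79 over the 5163 unshared peaks and 0.55 over the 38053 shared peaks. These are correlations across peaks of 1 library, which share its depth and its caller. The median width of unshared peaks was 1943.5 bp at scores of 50 to 60, 2565 bp at 75 to 100, 3779 bp at 150 to 200 and 4424 bp at 200 or more. The median of shared narrow peaks was 2011.5, 2287.5, 2610 and 2918 bp at the same scores. At scores of 200 or more, 72.8% of unshared peaks (67.1 to 77.7%) and 19.6% of shared peaks (18.6 to 20.5%) were at least 4000 bp wide. High-scoring shDnmt3L peaks with no control peak were therefore mostly broad for their class.

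The opposite corner, compact peaks of high score, held no unshared peak. Of the 1727 shDnmt3L peaks narrower than 2500 bp with a score of 200 or more, 0 lacked shGFP overlap. The Wilson interval of this share reaches up to 0.222%. With the minimum score at 100 instead, 60 of 8097 (0.741%, 0.576 to 0.953%) were unshared. Among peaks of 4500 bp or more at scores of 200 or more, 119 of 684 (17.4%, 14.7 to 20.4%) were unshared. Among low peaks, with scores below 75, the unshared share was 39.1% (35.9 to 42.4%) at widths of 2500 bp or more and 18.2% (17.6 to 18.9%) below 2500 bp. The share without control overlap was thus highest for peaks that were long and low, and at a given width it mostly fell with score.

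**Figure D1:**
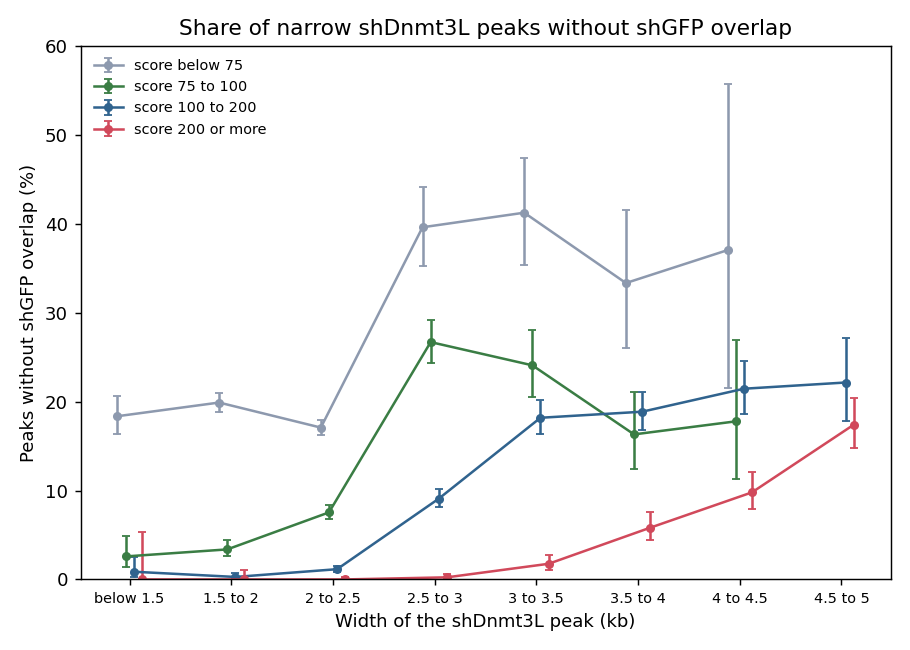
The share of shDnmt3L peaks below 5000 bp without shGFP overlap (%, vertical axis) is plotted by peak width (kb, horizontal axis) in 4 classes of score, with Wilson 95% intervals as bars. Classes with fewer than 20 peaks are not drawn. At scores of 200 or more the share was 0 at widths of 2 to 2.5 kb and 17.4% at 4.5 to 5 kb, and at scores below 75 it was 17.1% and 39.6% at 2 to 2.5 and 2.5 to 3 kb.

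Unshared narrow peaks lay beside the 561 wide unshared peaks more often than shared narrow peaks did. Within 50 kb of a wide unshared peak were 440 of 5163 unshared narrow peaks (8.52%, 7.79 to 9.31%) and 1737 of 38053 shared narrow peaks (4.56%, 4.36 to 4.78%), a difference of 3.96 percentage points (3.20 to 4.78). The contrast was steepest at short range. Within 2000 bp were 109 unshared peaks (2.11%, 1.75 to 2.54%) and 84 shared peaks (0.221%, 0.178 to 0.273%), and within 10 kb 4.05% and 1.06%. Between 50 and 100 kb the shares were 4.44% and 3.78%, and between 100 and 200 kb they were 5.79% and 6.56%. The difference was 6.28 percentage points without peaks scoring under 100, 7.45 with the limit between narrow and wide at 3000 bp and 1.49 with it at 10000 bp. Part of this contrast is set by the selection, since the narrow and the wide peaks were both picked for having no control peak, and a stretch without control peaks can hold both. Near wide shDnmt3L peaks that did overlap a shGFP peak the shares were alike at 50 kb, 19.4% of unshared (18.3 to 20.5%) and 19.4% of shared narrow peaks (19.0 to 19.8%). Within 2000 bp of such wide peaks lay 2.11% of unshared (1.75 to 2.54%) and 1.70% of shared narrow peaks (1.57 to 1.83%). These intervals overlap slightly, which does not show the shares to be equal.

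**Figure D2:**
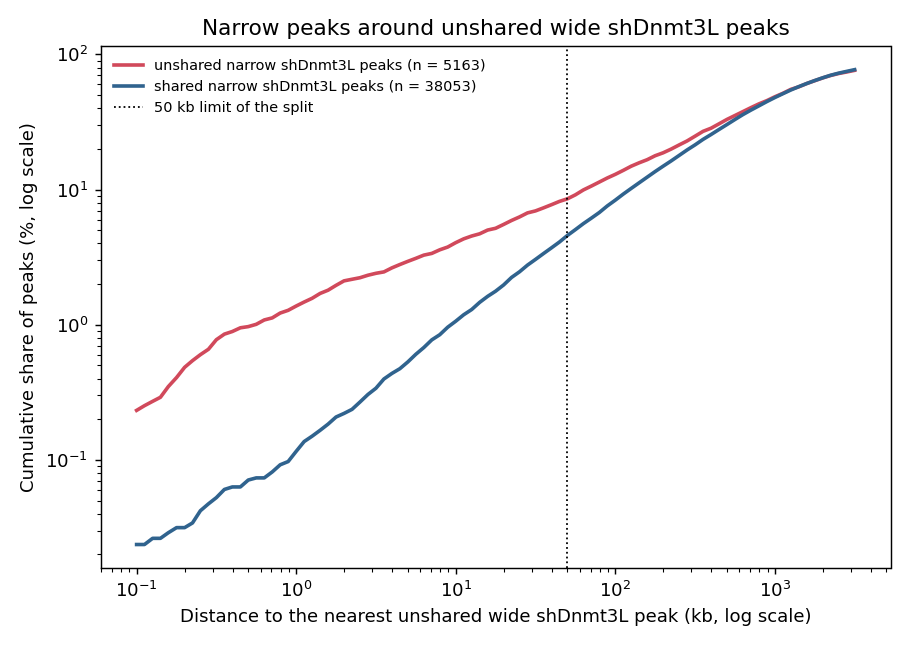
The cumulative share of narrow shDnmt3L peaks (%, log scale) is plotted against the distance to the nearest wide shDnmt3L peak without shGFP overlap (kb, log scale), for 5163 unshared and 38053 shared narrow peaks. The unshared curve lies above the shared one at short range, with 2.11% against 0.221% at 2 kb, and the curves converge at the right end.

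The near-wide peaks were spread along the whole distance allowed, with a median of 10969 bp to the wide peak (quartiles 2218 and 25692 bp). The closest was 14 bp away, and 50 were within 500 bp. No shGFP peak stood between the near-wide peak and its wide neighbour in 257 of 440 cases (58.4%). This holds for all 109 peaks within 2000 bp. A shGFP peak would have to fit inside the gap, and no shGFP peak was narrower than 500 bp. The outcome is therefore fixed for the 50 peaks within 500 bp. Wider gaps left room only for shGFP peaks narrower than the gap, and 50.1% of all shGFP peaks were below 2000 bp. When unshared shDnmt3L peaks no more than 2 kb apart were joined, 104 stretches held both kinds, with 114 wide and 119 narrow peaks. The median length of these stretches was 11037 bp and the longest reached 67761 bp.

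Seen from the wide peaks, 325 of 561 (57.9%, 53.8 to 61.9%) had at least 1 unshared narrow peak within 50 kb, 145 had 2 or more and 58 had 3 or more. The share was 63.5% (53.9 to 72.1%) for the 104 wide peaks of 10 kb or more and 56.7% (52.1 to 61.1%) for the 457 of 5 to 10 kb, with overlapping intervals. The wide peak with the most, 6 of them, spanned 8888 bp on chromosome 18, from 37901376 to 37910263, and scored 605.73.

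Near-wide peaks were somewhat wider and higher in score than isolated ones. Their median width was 2660 bp (quartiles 2214 and 3469 bp), against 2383 bp (1967 and 3022 bp) for isolated peaks, a difference of 277 bp. Their median score was 83.1 (62.0 and 133), against 69.3 (56.2 and 101) for isolated peaks, a difference of 13.8. Scores of 100 or more were held by 39.8% of near-wide peaks (35.3 to 44.4%) and 25.5% of isolated peaks (24.3 to 26.8%). The near-wide part of the unshared narrow peaks grew with score, from 5.63% at scores of 50 to 60 through 9.52% at 75 to 100 to 14.9% at 200 or more. The 2 kinds still overlapped over most of their range, from 50.01 to 473.31 in near-wide and from 50 to 754.36 in isolated peaks.

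The spacing of neighbouring peaks was compared next. The next shDnmt3L peak of any kind was a median of 1937 bp away for near-wide peaks (quartiles 701 and 5543 bp), 6583 bp for isolated peaks (2053 and 18784 bp) and 6500 bp for shared narrow peaks (2101 and 18071 bp). The split fixes part of the short distance of near-wide peaks, because their wide neighbour counts as a next peak. With wide unshared peaks left out, the medians were 4683 bp (1600 and 12134 bp) for near-wide, 6583 bp for isolated and 6590 bp for shared narrow peaks. Isolated peaks were thus isolated from wide unshared peaks but spaced like the rest of their list. Where another shDnmt3L peak lay within 10 kb, that neighbour was a shared peak for 42.7% of near-wide peaks (37.9 to 47.7%) and for 78.5% of isolated peaks (76.9 to 80.0%). The nearness of a wide unshared peak also fixes part of this contrast by definition. Most peaks of the list were shared in any case, as 12.6% of all shDnmt3L peaks lacked shGFP overlap.

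Control peaks lay about as close to unshared narrow peaks as peaks of the shDnmt3L list lay to each other. Another shDnmt3L peak was within 10 kb for 60.9% of shared narrow peaks. The selection itself kept unshared peaks from touching a control peak. Within 50 kb, unshared narrow peaks had a median of 4 shGFP peaks, and 8.21% had none. The median was 6 for shared narrow peaks, which counts the one overlapped. For unshared narrow peaks, the nearest shGFP peak was a median of 7298 bp away (quartiles 2715 and 18156 bp). Of these, 3049 of 5163 (59.1%, 57.7 to 60.4%) lay within 10 kb of one. Near-wide peaks had a median distance of 8353.5 bp (3271 and 18248 bp) and isolated peaks 7185 bp (2675 and 18094 bp), a difference of 1168.5 bp whose range from the spread of the near-wide median, −257 to 2749 bp, includes 0. Its sign changed under 4 of the alternative settings in the closing section. At the far end the values ran the other way, on few near-wide peaks. A shGFP peak was more than 100 kb away for 9 near-wide peaks (2.05%, 1.08 to 3.84%) and 189 isolated peaks (4.002%, 3.48 to 4.599%). Control peaks within 10 kb on both sides flanked 15.0% of near-wide peaks (11.97 to 18.6%) and 20.3% of isolated peaks (19.2 to 21.5%). This last contrast had the direction of the medians.

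**Figure D3:**
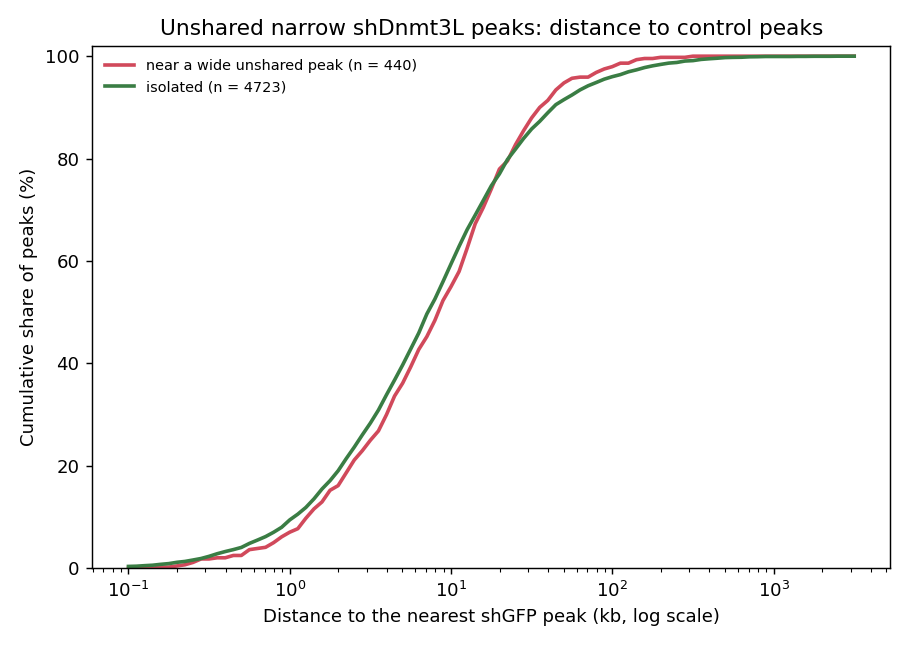
The cumulative share of unshared narrow shDnmt3L peaks (%) is plotted against the distance to the nearest shGFP peak (kb, log scale), for 440 near-wide and 4723 isolated peaks. The curves run close together and cross, with 55.0% of near-wide and 59.4% of isolated peaks within 10 kb of a shGFP peak, and 94.8% and 91.5% within 50 kb.

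The neighbouring control peaks were mostly ones that the knockdown library also had. Of the 971 unshared narrow peaks with a shGFP peak within 2000 bp, that shGFP peak had no shDnmt3L overlap in 178 cases (18.3%, 16.0 to 20.9%), where 25.5% of all 55292 shGFP peaks had none. For these 178, an unshared control peak and an unshared knockdown peak lay side by side. In 793 cases the control peak had its own shDnmt3L partner, and the narrow peak was an additional call beside it.

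The space between control peaks that held an unshared narrow peak had a median length of 39720 bp (quartiles 19665 and 88438 bp), of which the peak covered a median of 6.20%. In 71.5% of cases (70.3 to 72.7%) it was the only unshared shDnmt3L peak in that space. This was true of 33.2% of near-wide peaks (28.9 to 37.7%) and 75.1% of isolated peaks (73.8 to 76.3%). The space held 3 or more unshared peaks for 37.95% of near-wide and 6.12% of isolated peaks. The wide peak that defines the near-wide class is among those counted, so these contrasts are largely set by the split.

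Unshared narrow peaks joined within 10 kb of each other formed 4659 groups, of which 4237 held a single peak, 361 held 2, 46 held 3 and 15 held 4 or 5. Another unshared narrow peak lay within 10 kb for 27.7% of near-wide peaks (23.8 to 32.1%) and 17.0% of isolated peaks (16.0 to 18.1%). Under the closer limit of 2 kb, and leaving out stretches with a wide peak, 412 peaks formed 200 strings of 2 or more, with a median length of 6350.5 bp and a longest of 14339 bp. Of these strings 172 (86.0%, 80.5 to 90.1%) spanned 5000 bp or more, the width limit of the wide class. The joining largely fixes this share, since 2 peaks of the median width of 2399 bp plus a gap come close to that length. The gaps were not checked for shGFP peaks.

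The largest groups held 5 peaks, and none of the 5 groups ranked first had a wide unshared peak within 50 kb. The first, on chromosome 13 from 83854256 to 83885947, had peaks of 3077, 4240, 4332, 1994 and 3238 bp with scores of 197.59, 145.43, 216.78, 51.71 and 90.04, in order along the chromosome. They covered 53.3% of a 31692 bp span with no shGFP peak, inside a space of 222403 bp between control peaks. The nearest control peak to any of them was 52154 bp away. The 3 peaks of highest score stood next to each other at the lower-coordinate end of the group.

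The second group, on chromosome 18 from 37638024 to 37666858, had peaks of 2551, 3030, 2406, 3488 and 2636 bp with scores of 90.46, 96.92, 65.91, 195.6 and 125.56. Control peaks bounded it on both sides, 44973 bp apart, and both had shDnmt3L partners. The third, on chromosome 14 from 76660817 to 76680291, held peaks of 2266, 2447, 4005, 1953 and 2858 bp and covered 69.5% of its span, again between control peaks, 40991 bp apart. The fourth, on chromosome 11 from 103640504 to 103662490, was broken by 1 shGFP peak of 2211 bp and 1 shared shDnmt3L peak, and its highest score was 294.3. The fifth, on chromosome 2 from 10250847 to 10283474, covered 38.9% of its span with scores of 61.91 to 107.25, in a space of 101281 bp without control peaks.

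**Figure D4:**
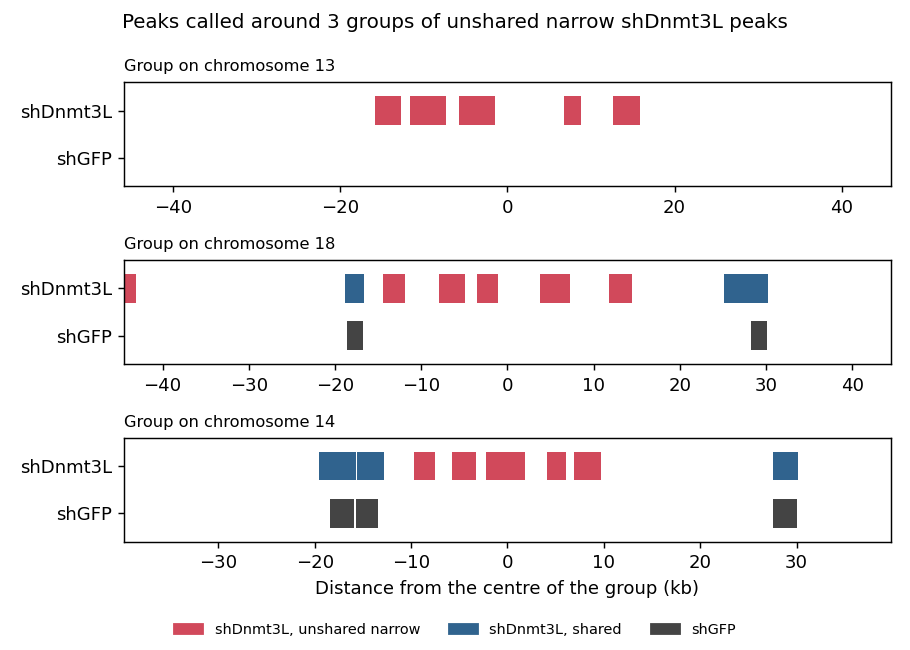
Called peaks are drawn as bars by their distance from the centre of the group (kb) for the groups on chromosomes 13, 18 and 14, with the shDnmt3L list above the shGFP list. Each group shows 5 unshared narrow shDnmt3L peaks with no shGFP peak between them, and on chromosome 18 another such peak is cut by the left edge. On chromosomes 18 and 14 the flanking shGFP peaks each sit under a shared shDnmt3L peak, and on chromosome 13 the window holds no shGFP peak.

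The 8 isolated peaks of highest score were all between 4200 and 4810 bp wide, and 5 of the 8 lay on chromosome 8, the autosome with most peaks per Mb in both lists (37.9 in shDnmt3L and 42.8 in shGFP). The first, on chromosome 8 from 124805950 to 124810709, scored 754.36 and ended 126 bp from a shGFP peak of 1563 bp, so its lack of overlap rested on a short gap. The second, on chromosome 8 from 15026718 to 15031011, scored 541.34, was 12473 bp from a shGFP peak and had another unshared narrow peak 3649 bp away. The next, on chromosome 8 from 127575818 to 127580608 and from 126414771 to 126419580, scored 487.93 and 479.6, with shGFP peaks at 2556 and 2321 bp. Beyond chromosome 8, the highest lay on chromosome 17 from 56649169 to 56653368, scoring 442.38, on chromosome 1 from 94995811 to 95000574 with 429.75, and on chromosome 12 from 77505087 to 77509700 with 427.51. The eighth was on chromosome 8 from 94982889 to 94987146, with 404.95. These 8 peaks had 3 to 15 shGFP peaks within 50 kb, where the median of all isolated peaks was 4.

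The 8 near-wide peaks of highest score were 4339 to 4919 bp wide, none was on chromosome 8 and 3 were on chromosome 2. The first, on chromosome 5 from 31437302 to 31442168, scored 473.31 and was 37310 bp from its wide peak. The second, on chromosome 2 from 94078510 to 94083303, scored 456.77 and was separated by 163 bp from a wide peak of 5497 bp. The third, on chromosome 2 from 74515769 to 74520657, scored 399.43 and lay 73 bp from a wide peak of 11989 bp. It stood in a space of 186139 bp without control peaks that held 10 unshared shDnmt3L peaks in all. The sixth, on chromosome 6 from 52125762 to 52130680, scored 334.9 and lay 1249 bp from a wide peak of 14636 bp, with 4 unshared peaks in a space of 105069 bp.

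The other 4 near-wide peaks were on chromosome 11 from 53274414 to 53279200, on chromosome 2 from 56952738 to 56957556, on chromosome 12 from 81111687 to 81116342 and on chromosome 1 from 75417583 to 75421921. Their scores were 380.56, 377.48, 325.4 and 320.9, in that order. Except for the last, which had a shGFP peak 1775 bp away, the 8 lay 6018 to 79866 bp from the nearest control peak.

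The 5 unshared narrow peaks farthest from any control peak stood alone. Of these, 3 were on the X chromosome, from 39842173 to 39844100, from 109483909 to 109485363 and from 143395104 to 143397128, at 2291960, 1593162 and 1353467 bp from a shGFP peak and with scores of 54.89, 116.33 and 74.09. The other 2 were on chromosome 12 from 97931269 to 97932823 and on chromosome 7 from 62332949 to 62334234, with scores of 54.39 and 57.36. None of the 5 had another peak of either list within 50 kb. The widths were 1286 to 2025 bp.

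By chromosome, the share of narrow shDnmt3L peaks without shGFP overlap had a median of 12.3% over the 19 autosomes and ranged from 9.90% on chromosomes 16 and 17 to 14.9% on chromosome 18. The interval of chromosome 18 (13.1 to 17.0%) lay above the overall 11.9%. Between 37 and 38 Mb, which contains the group above, 26 of its 43 narrow peaks (60.5%, 45.6 to 73.6%) were unshared. Without that segment the share on chromosome 18 was 13.4% (11.7 to 15.4%), with an interval that includes 11.9%. The segment was chosen after its values were seen, so a lower share without it was fixed in advance. Chromosomes 2 and 9 had 13.6% and 13.7%, with intervals also above 11.9%. Chromosomes 4, 5, 8, 16 and 17 had intervals below 11.9%.

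Chromosome 8 held 475 of the unshared narrow peaks (9.20%, 8.44 to 10.02%) and 10.5% of the shared ones (10.2 to 10.8%). In number it was still the richest, with 3.62 unshared narrow peaks per Mb, against an autosomal median of 2.01. The X chromosome held 17 unshared narrow peaks among 146 narrow peaks, and its 11.6% (7.398 to 17.9%) was near the overall share despite 0.102 per Mb. All 17 were isolated, since the X chromosome had no wide unshared peak. Chromosome 2 had the most near-wide peaks, 60 of its 413 (14.5%), together with the most wide unshared peaks, 68, and chromosome 17 had the lowest autosomal share, 9 of 191 (4.71%), with 19 wide unshared peaks.

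**Figure D5:**
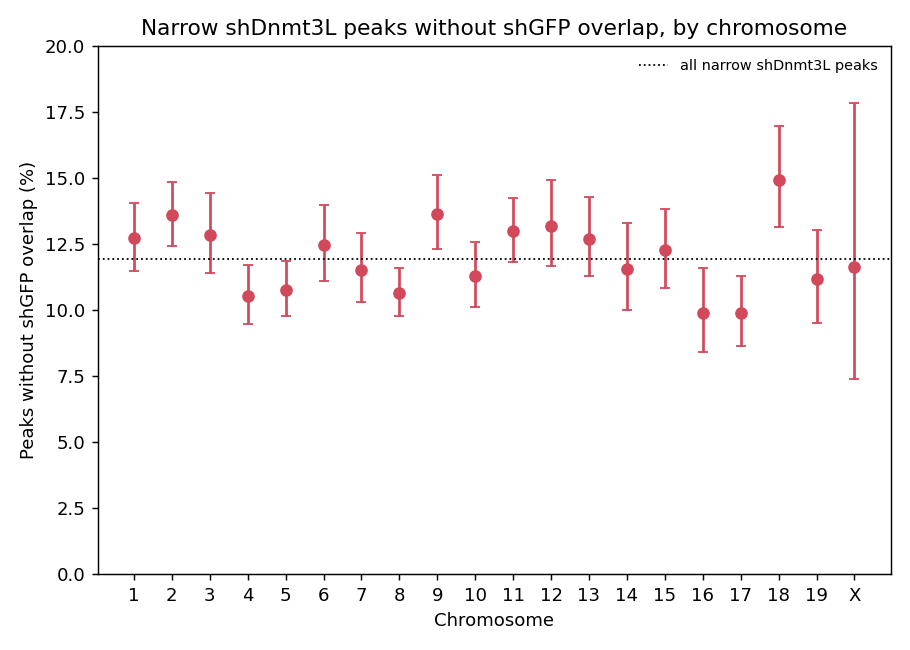
The share of narrow shDnmt3L peaks without shGFP overlap (%) is shown for each chromosome with its Wilson 95% interval, and the dotted line marks 11.9% over the whole list. The points lie between 9.90% and 14.9%, with chromosome 18 highest and the widest interval on the X chromosome. Chromosome Y, with 1 narrow peak, is not drawn.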

How the data were processed

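The authors deposited 1 peak list per library, called separately for shDnmt3L and shGFP. Column 5 is the score the authors' peak caller gave each peak; its minimum near 50 is what −10 times log10 of p gives at a p of 1e-05, a reading from the values. The submitters' processing notes name CASAVA 1.8, Bowtie 0.12.7, MACS 1.4.1 and build mm9 without roles. Whether an input control was used, how duplicates were handled and how deep the sequencing was is not given in the sources used here. Each can change which weak peaks are called.

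Overlaps and edge-to-edge distances were computed with scipy 1.17.1, pandas 2.3.3 and numpy 2.4.6 under Python 3.11.15, and the code was tested on simulated data. Medians, quartiles and Wilson intervals describe peaks; no test was run, since each group has 1 library. The interval of a difference of shares combined both Wilson intervals, and the range of a difference of medians used the order statistics of the near-wide peaks.

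Named regions were the 8 isolated and 8 near-wide peaks of highest score, the 5 farthest from a shGFP peak, the 5 largest groups (ties by summed width), and peaks next to each limit. The wide peak on chromosome 18, the segment at 37 to 38 Mb, the width and score classes, and the joining at 2 kb were chosen after values were seen. The peaks, limits and comparisons were chosen with earlier results of these data known. The planned gene lists and sequences were not used here, for want of an mm9 genome and annotation. Drawings used matplotlib 3.10.9.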

Additional observations from a re-analysis of the deposited data

How the results depend on the processing

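Of 77 alternative values, 39 stayed within the interval of the reported value (a factor of 1.5 for the number of peaks), 34 moved beyond it and 4 changed sign. All 4 sign changes were in the difference in median distance to shGFP peaks, near-wide minus isolated: −110 bp with lists of equal length, −490 bp with narrow below 3000 bp, −497.5 bp with isolated beyond 100 kb and −3811 bp with all wide shDnmt3L peaks, whether shared or not, as the wide class. That difference also moved to 3433 bp with narrow below 10000 bp and to 2792 bp with isolated beyond 20 kb. With peaks scoring under 100 left out of both lists, 2791 narrow peaks were unshared, including ones that overlapped only shGFP peaks scoring under 100. Of the 2791, 85.9% were isolated, and the surplus near wide peaks was 6.28 percentage points. The near-wide minus isolated differences were 120 bp in width and 8.02 in score. Of these peaks 41.1% lay within 10 kb of a shGFP peak that was kept, 10.5% on chromosome 8 and 12.6% within 10 kb of each other. For lists of equal length, the shGFP list was cut to its 45579 peaks of highest score. The number of unshared narrow peaks then rose from 5163 to 7480, which lies within the factor of 1.5. Of these, 54.9% lay within 10 kb of a shGFP peak that was kept and 20.1% within 10 kb of each other. Counting a shGFP peak within 500 bp as overlap gave 57.4% within 10 kb of a shGFP peak. With narrow below 3000 bp, 78.9% were isolated, the surplus was 7.45 percentage points, the differences were 123 bp and 3.64 in score, and 12.2% lay within 10 kb of each other. With narrow below 10000 bp these were 97.6%, 1.49, 557 bp, 35.1 and 21.5%. Isolated peaks were 94.5% beyond 20 kb and 87.0% beyond 100 kb. With peaks within 500 bp merged, 92.3% were isolated, 56.6% lay within 10 kb of a shGFP peak, 8.37% on chromosome 8 and 14.2% within 10 kb of each other. Added after the data were seen, leaving out chromosome 8 gave 57.3% within 10 kb of a shGFP peak, and taking all wide shDnmt3L peaks gave 74.4% isolated, a surplus of 2.97 percentage points and differences of 92 bp and 6.33 in score. Changes of the narrow or isolated limit redefine the classes, and the cause of the other shifts was not tested. The surplus near wide peaks and the differences in width and score kept their sign under the alternatives run. Every alternative again picked the narrow peaks for lacking a control peak, which sets part of the surplus. Its kept sign is therefore no independent check. No paired analysis was possible because there is a single library of each kind. Sequencing depth is unknown and bears on weak peaks most, and 34.05% of the unshared narrow peaks scored below 60.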
